A study of Mus musculus with 6 samples.

Results

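The Kruppel-like factors are DNA-binding transcription factors that share a zinc finger domain at their carboxy-terminal end, and 10 of their genes (*Klf2*, *Klf3*, *Klf4*, *Klf5*, *Klf6*, *Klf9*, *Klf10*, *Klf11*, *Klf13* and *Klf15*) were followed here in the mouse uterus just before embryo attachment. They were taken by gene symbol from the 56748 genes measured, and all 10 had enough counts to be tested, as had 16605 genes in all. RNA of whole uteri was sequenced from 3 Control and 3 *Gp130* ecKO females, all labelled C57BL/6 (C57BL/6J in the methods) and all collected at 1600 h on day 4 of pregnancy. The *Gp130* ecKO females carried floxed *Gp130* alleles together with *Ltf*-iCre, a recombinase placed in the lactoferrin gene that acts in the uterine epithelium. Deletion was thus aimed at the epithelium and not at stroma, vessels or muscle of the same uterus. The study adds that some immune cells, such as neutrophils and macrophages, also express *Ltf*. Deletion by cell type was not measured in these data. The labels give the Control genotype as WT, while the methods of the study describe controls as floxed females without iCre or wildtype females. *Gp130* encodes the signalling chain of the receptor for leukemia inhibitory factor (LIF), and the comparison asked how uterine RNA differed when the epithelium lacked it.

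Kruppel-like factors recognize GC-rich sites and CACCC boxes, and members of the family activate or repress their targets depending on the cofactors they recruit. In the uterus they are best known as partners and modulators of the steroid hormone receptors. *Klf5* is needed in the uterine epithelium for implantation, *Klf9* encodes a partner of the progesterone receptor, *Klf15* has been described as a brake on estrogen-driven DNA replication in the epithelium, and *Klf2* is a factor of the vascular endothelium induced by blood flow.

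The finger-coding DNA shows how close the members are to each other and is given for the pair that differed most between the groups, for the nearest relative of *Klf2* and for *Klf9*, one of the most distant relatives of *Klf4*. Each line reads 5′ to 3′ from the first cysteine codon to the last histidine codon of the finger domain in GENCODE M39 transcripts, and capitals mark the 78 of 243 bases that all 10 members share.
Klf2: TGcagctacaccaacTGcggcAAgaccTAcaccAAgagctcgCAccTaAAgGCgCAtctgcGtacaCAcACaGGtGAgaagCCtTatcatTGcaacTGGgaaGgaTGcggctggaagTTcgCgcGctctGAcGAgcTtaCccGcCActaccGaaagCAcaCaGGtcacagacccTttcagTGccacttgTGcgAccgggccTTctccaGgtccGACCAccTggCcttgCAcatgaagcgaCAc
Klf3: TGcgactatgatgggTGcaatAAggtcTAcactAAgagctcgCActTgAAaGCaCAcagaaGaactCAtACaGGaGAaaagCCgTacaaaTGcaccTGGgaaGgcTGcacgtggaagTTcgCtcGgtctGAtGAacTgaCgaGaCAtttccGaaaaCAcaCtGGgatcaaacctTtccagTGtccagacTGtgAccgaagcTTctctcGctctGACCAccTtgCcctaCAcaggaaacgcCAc
Klf4: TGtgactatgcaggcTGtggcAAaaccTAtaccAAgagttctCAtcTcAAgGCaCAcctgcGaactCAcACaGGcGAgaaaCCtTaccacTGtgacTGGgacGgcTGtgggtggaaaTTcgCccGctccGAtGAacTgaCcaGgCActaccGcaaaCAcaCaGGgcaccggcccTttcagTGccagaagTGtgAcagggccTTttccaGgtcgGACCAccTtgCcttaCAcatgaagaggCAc
Klf9: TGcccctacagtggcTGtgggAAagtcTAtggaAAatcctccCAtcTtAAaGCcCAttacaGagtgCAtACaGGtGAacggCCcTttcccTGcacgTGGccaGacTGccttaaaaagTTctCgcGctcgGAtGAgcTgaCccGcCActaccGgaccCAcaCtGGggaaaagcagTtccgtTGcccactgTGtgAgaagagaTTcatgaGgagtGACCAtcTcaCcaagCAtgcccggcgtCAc
Identity over these 243 bases was 78.2% between *Klf2* and *Klf4*, the closest pair, and 76.1% between *Klf10* and *Klf11*. *Klf9* and *Klf13* shared 72.8%, *Klf3* and *Klf5* shared 73.7%, and *Klf2* and *Klf3* shared 68.7%. The most distant pairs, *Klf4* with *Klf9* and *Klf5* with *Klf10*, shared 57.2%. No member shared an exact stretch of 75 bases, the read length, with another member. The stretches of that length found outside the family were those of *Klf3* with the antisense gene *Gm20033* and of *Klf9* with the antisense gene *Gm56648*, whose CPM did not pass 0.800 and 0.324 in any uterus.

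The deposited counts summed to between 13960748, in Control 3, and 25906443, in Control 2, and the member with the fewest counts, *Klf15*, still had 196 in Control 3. Values per uterus are given in order of replicate as CPM, counts divided by a library total that TMM had scaled, on which one gene is compared between uteri but not with another gene. *Gp130*, under its symbol *Il6st*, had a CPM of 631, 678 and 452 in the Control and 388, 349.8 and 362 in the *Gp130* ecKO uteri, a log2 difference of -0.68 with a standard error of 0.21 (adjusted p = 0.120 by edgeR's quasi-likelihood test). The CPM of *Ltf*, the gene that hosts iCre, was 75.6, 62.7 and 8.27 in the Control and 13.8, 281 and 245 in the *Gp130* ecKO uteri, with overlap. In a multidimensional scaling of the uteri, Control 1 and Control 3 lay at 2.09 and 2.08 on the first dimension, the *Gp130* ecKO uteri between -1.47 and -1.32, and Control 2 at 0.03. On the second dimension Control 1 and Control 3 were the farther pair, at 1.70 and -1.61, with Control 2 between them at -0.28. The log2 CPM of Control 2, compared across genes, had an r of 0.946 to 0.967 with the *Gp130* ecKO uteri, and of 0.958 and 0.946 with Control 1 and Control 3. Because Control 2 lay nearer to the *Gp130* ecKO uteri than the other controls did, results that rest on it are given with and without it. The labels number the uteri but do not say more about the animals, so the p-values measure the spread between these samples.

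None of the 10 members was called in the *Gp130* ecKO uteri at an FDR under 0.05 and a change above 2-fold by edgeR's quasi-likelihood test, a rule that called 26 of 16605 genes (0.157%). At an unadjusted p under 0.05 there were 2 members, *Klf2* (lower) and *Klf3* (higher), which is 20% of the members beside 25.0% of all genes tested (12.9% lower and 12.1% higher). In 4 members the CPM ranges of the groups did not overlap, *Klf2* and *Klf9* being lower and *Klf3* and *Klf13* higher in every *Gp130* ecKO uterus, while 31.3% of all genes tested did not overlap (15.6% lower and 15.7% higher). With Control 2 left out there were 5 such members, *Klf15* being the addition, beside 45.6% of all genes tested. Of the 10 members, 6 had a positive and 4 a negative log2 fold change, with a median of 0.17 beside -0.05 over all genes tested. This median rested on single uteri, being -0.073 without *Gp130* ecKO 1, where *Klf4* and *Klf6* turned negative, and 0.31 without Control 1. The share of members with a low p-value was thus under that of all genes, and the share with separated groups, 4 of 10, was above it by less than 1 member.

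**Figure D1:**
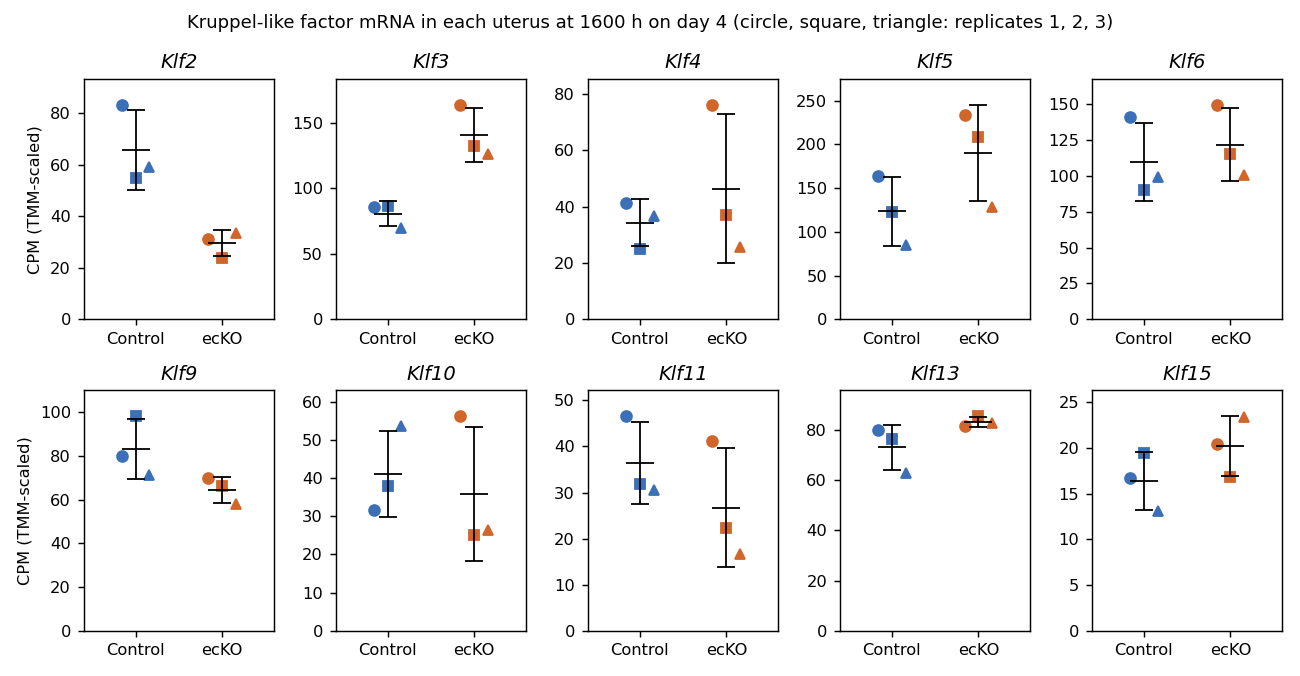
CPM (TMM-scaled, linear axes from 0) of each of the 10 members in 3 Control (blue) and 3 *Gp130* ecKO (orange) uteri, with replicates 1, 2 and 3 as circle, square and triangle; horizontal bars are means and error bars are SD. *Klf2* and *Klf9* lay lower and *Klf3* and *Klf13* higher in every *Gp130* ecKO uterus, and the ranges of the other 6 members overlapped.

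*Klf2* (chr8:73072726-73075502 in GRCm39) had a CPM of 83.4, 54.8 and 59.2 in the Control uteri and 31.1, 23.9 and 33.7 in the *Gp130* ecKO uteri. All *Gp130* ecKO values lay under all Control values, and the nearest pair was Control 2 and *Gp130* ecKO 3. The mean was 65.8 ± 15.4 (SD, n = 3) in the Control and 29.6 ± 5.06 (SD, n = 3) in the *Gp130* ecKO. The level was therefore 2.23-fold lower, with a log2 fold change of -1.15 (95% interval -1.69 to -0.62, adjusted p = 0.0677 by edgeR's quasi-likelihood test). This adjusted p missed the threshold with all 6 uteri. Over the 17 alternatives the log2 fold change ran from -1.24 to -0.92, so its direction was the same in each of them. Without Control 2 it was -1.24 with an adjusted p of 0.0431 by the same edgeR test, which is a call, under a rule that then called 5.23% of genes. The other count tests also called *Klf2*, with an adjusted p of 0.00235 for edgeR's exact test, 0.00221 for its likelihood ratio test and 0.00137 for DESeq2. Those tests called 7.54%, 7.93% and 9.29% of all genes. The highest adjusted p of edgeR's quasi-likelihood test was 0.206, when *Gp130* ecKO 1 was left out.

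Markers of the vascular endothelium were lower in the *Gp130* ecKO uteri, as *Klf2* was. The summed CPM of 6 endothelial markers (*Pecam1*, *Cdh5*, *Kdr*, *Tie1*, *Tek* and *Vwf*) was 987, 653 and 378 in the Control and 216, 387 and 334 in the *Gp130* ecKO uteri. All 6 had a negative log2 fold change, with a median of -1.23, and 5 of them had an unadjusted p under 0.05 (83.3% beside 25.0% of all genes). However, Control 3 lay within the *Gp130* ecKO range of the sum. The median was -0.80 without Control 1, the uterus with the highest sum, -1.02 without *Gp130* ecKO 1 and -1.25 without Control 2. None of the markers was at 0 in all uteri. *Klf2* CPM as a percentage of this sum was 8.45, 8.38 and 15.6 in the Control and 14.4, 6.18 and 10.1 in the *Gp130* ecKO uteri, with means of 10.8 ± 4.17 and 10.2 ± 4.11 (SD, n = 3 each), so the groups overlapped on this scale. In bulk RNA of whole uteri, fewer cells of a type and less RNA per cell cannot be told apart, and the part of endothelial content in the *Klf2* difference was not tested. The gene *Eps15l1*, which overlaps *Klf2* on the opposite strand, had a CPM of 40.7 to 53.7 and a log2 fold change of -0.16.

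Genes known as targets of KLF2 and KLF4 in endothelium were also measured. *Thbd*, which encodes the anticoagulant receptor thrombomodulin, had a CPM of 245, 109 and 112 in the Control and 47.8, 57.6 and 57.9 in the *Gp130* ecKO uteri (log2 fold change -1.52, adjusted p = 0.0795 by edgeR's quasi-likelihood test). *S1pr1*, a sphingosine 1-phosphate receptor of endothelial cells, had 80.1, 73.4 and 50.5 in the Control and 17.9, 27.3 and 34.8 in the *Gp130* ecKO uteri (log2 fold change -1.35, adjusted p = 0.0767). *Nos3*, the endothelial nitric oxide synthase, had 40.8, 27.5 and 17.4 in the Control and 5.11, 13.9 and 9.78 in the *Gp130* ecKO uteri (log2 fold change -1.57, adjusted p = 0.105). These 3 of the 6 genes had an unadjusted p under 0.05, beside 25.0% of all genes, and no overlap between groups, beside 31.3%. The other 3 genes of the list overlapped between the groups. *Edn1*, the endothelin 1 gene, had a positive log2 fold change of 0.31 (adjusted p = 0.531), with a CPM of 34.3, 23.9 and 17.3 in the Control and 31.0, 39.2 and 23.9 in the *Gp130* ecKO uteri, and *Vcam1* and *Sele* were both at -1.09 (adjusted p = 0.264 and 0.433). Over the 6 genes, 5 of them negative, the median log2 fold change was -1.22. This median depended on single uteri, shrinking to -0.80 when Control 1 was omitted and to -0.94 when *Gp130* ecKO 1 was. Omitting Control 2 gave -1.30.

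*Klf3*, which encodes a factor that mostly represses transcription through CtBP corepressors, is located at chr5:64959875-64990261 in GRCm39. It had a CPM of 85.9, 86.5 and 70.1 in the Control and 164, 132 and 126 in the *Gp130* ecKO uteri. Every *Gp130* ecKO uterus lay above every Control uterus, with a wide gap between 86.5 and 126. The mean was 80.8 ± 9.32 in the Control and 141 ± 20.4 in the *Gp130* ecKO (SD, n = 3 each), a 1.74-fold higher level. On the log2 scale this was 0.80 (95% interval 0.39 to 1.21, adjusted p = 0.0796 by edgeR's quasi-likelihood test). Over the 17 alternatives it ran from 0.68 to 0.90. Without Control 2 it was 0.88 with an adjusted p of 0.0608. The adjusted p was 0.0224 by edgeR's exact test, 0.0216 by its likelihood ratio test and 0.00360 by DESeq2, and its highest value was 0.247, without *Gp130* ecKO 1. The change stayed under 2-fold in every setting, so *Klf3* was not called in any of them.

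Markers of the epithelium were higher in the *Gp130* ecKO uteri, as *Klf3* was. The summed CPM of *Epcam*, *Cdh1*, *Krt8*, *Krt18*, *Krt19* and *Foxa2* was 2466, 2641 and 1716 in the Control and 5126, 3813 and 4008 in the *Gp130* ecKO uteri, with no overlap. Of these 6 markers, 5 had a positive log2 fold change and 3 (*Cdh1*, *Krt8* and *Krt19*) had an unadjusted p under 0.05 (50% beside 25.0% of all genes), while *Epcam* was at -0.19 and *Foxa2* at 0.26, both with overlap between the groups. The higher sum thus rested on some of the markers, and it is not a measure of the number of epithelial cells. By immunostaining, the study found more KRT8 and CDH1 protein in the *Gp130* ecKO epithelium. A ratio to this sum is therefore not a correction for epithelial content. *Klf3* CPM as a percentage of this sum was 3.48, 3.27 and 4.08 in the Control and 3.20, 3.46 and 3.14 in the *Gp130* ecKO uteri, and the groups overlapped. As a percentage of the endothelial marker sum *Klf3* was 13.5 ± 4.91 in the Control and higher, at 49.3 ± 23.2, in the *Gp130* ecKO, without overlap. *Klf2* as a percentage of the epithelial marker sum was 2.97 ± 0.776 and lower, at 0.691 ± 0.130, without overlap (SD, n = 3 each). Overlap thus depended on the marker sum chosen. The summed CPM of 5 stromal markers was 2467, 2574 and 2140 in the Control and lower, at 1070, 1377 and 1617, in the *Gp130* ecKO uteri. Smooth muscle markers ranged from 448 to 1919 in the Control and from 339 to 2209 in the *Gp130* ecKO uteri. The part of tissue composition in the *Klf3* difference was not tested.

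**Figure D2:**
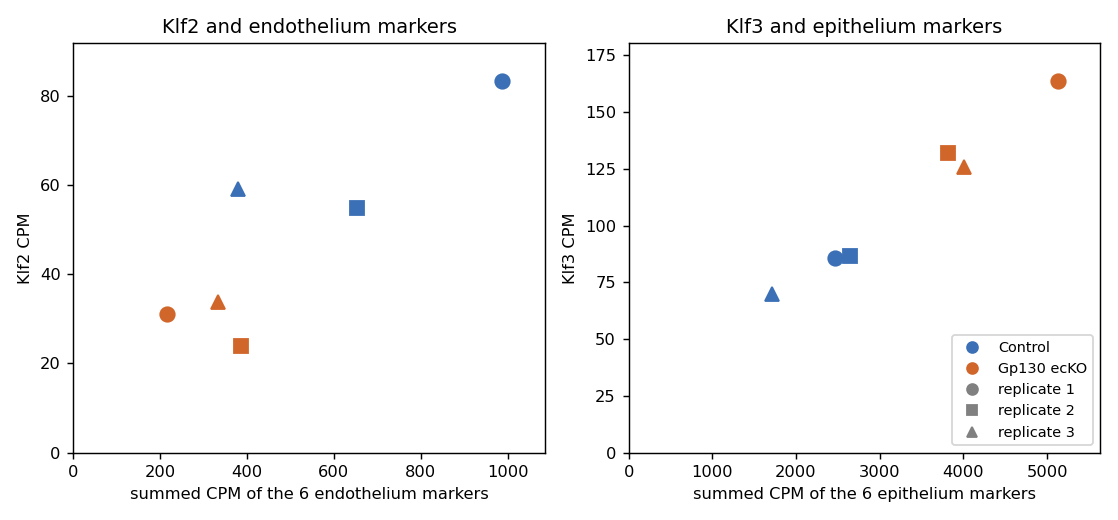
CPM of *Klf2* against the summed CPM of 6 endothelial markers (left) and CPM of *Klf3* against the summed CPM of 6 epithelial markers (right), both axes linear from 0, with 1 point for each of 3 Control (blue) and 3 *Gp130* ecKO (orange) uteri and shapes for replicate numbers. *Klf2* separated the groups, with 54.8 or more in the Control and 33.7 or less in the *Gp130* ecKO, while the endothelial sums of Control 3 (378) and *Gp130* ecKO 2 (387) lay side by side; on the right both axes separated the groups.

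The proximal promoters of these 2 members and of *Klf9* are shown because members can carry the boxes that Kruppel-like factors bind, and because *Klf9* alone of the members matched holds the spaced palindrome of STAT factors, which act downstream of *Gp130*. The sequences are the 250 bases before the RefSeq start site on GRCm38.p6, 5′ to 3′ on the gene's strand, for *Klf2* at chr8:72318812-72319061, *Klf3* at chr5:64803271-64803520 and *Klf9* at chr19:23140976-23141225. Capitals mark CACCC and GGGCGG on either strand (GGGTG and CCGCCC being the same boxes on the other strand), and TTCNNNGAA.
Klf2: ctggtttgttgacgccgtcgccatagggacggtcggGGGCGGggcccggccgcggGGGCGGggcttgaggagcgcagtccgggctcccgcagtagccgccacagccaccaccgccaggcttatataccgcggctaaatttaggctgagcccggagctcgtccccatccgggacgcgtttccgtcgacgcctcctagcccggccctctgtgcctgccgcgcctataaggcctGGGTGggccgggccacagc
Klf3: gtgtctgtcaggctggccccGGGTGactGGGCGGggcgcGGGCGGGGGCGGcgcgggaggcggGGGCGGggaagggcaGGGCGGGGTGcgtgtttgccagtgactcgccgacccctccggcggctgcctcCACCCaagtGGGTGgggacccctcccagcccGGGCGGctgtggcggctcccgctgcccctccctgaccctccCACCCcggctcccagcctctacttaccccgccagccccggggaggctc
Klf9: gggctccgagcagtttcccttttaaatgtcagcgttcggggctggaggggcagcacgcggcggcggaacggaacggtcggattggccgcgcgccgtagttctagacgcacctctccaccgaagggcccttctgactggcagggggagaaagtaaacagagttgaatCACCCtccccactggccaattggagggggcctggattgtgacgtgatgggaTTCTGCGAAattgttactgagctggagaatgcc
Matches were sought on both strands and may overlap, as a GGGCGG and a GGGTG do by their shared bases in *Klf3*. The *Klf3* window held 5 CACCC and 6 GGGCGG matches at a GC content of 78.4%, and that of *Klf2* held 1 CACCC match, 19 bases before the start, and 2 GGGCGG matches at 71.2%. The *Klf9* window held 1 CACCC match, no GGGCGG and 1 TTCNNNGAA match, which began 33 bases before the start. RefSeq promoters were matched for 8 of the 10 members, all but *Klf5* and *Klf10*. Of these 8, 5 held CACCC, as did 52% of all 32817 promoters of this length, and 7 held GGGCGG, as did 32.7%. The median GC content of all promoters was 52.4%, and the members ranged from 59.6% to 78.4%. TTCNNNGAA stood in 7.01% of all promoters, and its narrower form TTCCNGGAA in 0.914% and in none of the 8 windows. CCAAT was found in 5 of the 8 windows and in 33.8% of all promoters. TATAAA (12.4% of all promoters), TGACGTCA (1.55%) and the CArG box of serum response factor (1.47%) were in none of the 8 windows. These matches describe the letters in the windows and do not locate bound sites.

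*Klf5*, the epithelial factor needed for implantation, is located at chr14:99536086-99552473 in GRCm39. It had a CPM of 164, 123 and 84.5 in the Control and 234, 209 and 128 in the *Gp130* ecKO uteri. *Gp130* ecKO 1 and 2 were above all Control uteri and *Gp130* ecKO 3 was within their range. The log2 fold change was 0.62 (95% interval -0.09 to 1.34, adjusted p = 0.248 by edgeR's quasi-likelihood test), a difference that did not pass the test. It ran from 0.41 without Control 3 to 0.90 without Control 1. As a percentage of the epithelial marker sum *Klf5* was 5.40 ± 1.08 in the Control and 4.41 ± 1.14 in the *Gp130* ecKO (SD, n = 3 each).

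*Klf4*, a factor of differentiating epithelia and of endothelium, is located at chr4:55527139-55532528. Its CPM values were 41.4, 25.0 and 36.8 in the Control and 76.2, 37.1 and 25.7 in the *Gp130* ecKO uteri. Only *Gp130* ecKO 1 exceeded the Control range. The log2 fold change of 0.43 (95% interval -0.51 to 1.37, adjusted p = 0.524 by edgeR's quasi-likelihood test) turned to -0.13 without that uterus and was 0.75 without *Gp130* ecKO 3. *Klf6*, a broadly expressed factor known as an early response gene, is located at chr13:5911481-5920393. Its CPM of 141, 89.8 and 98.9 in the Control and 149.5, 115 and 101 in the *Gp130* ecKO uteri overlapped almost fully. Its log2 fold change was 0.15 (95% interval -0.40 to 0.69) and became -0.021 without *Gp130* ecKO 1 and 0.39 without Control 1.

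*Klf9*, the partner of the progesterone receptor, is located at chr19:23118187-23148497 in GRCm39. It had a CPM of 80.1, 98.2 and 71.3 in the Control and 69.7, 66.1 and 58.1 in the *Gp130* ecKO uteri. The groups did not overlap, but Control 3 and *Gp130* ecKO 1 were close to each other. The difference of -0.37 on the log2 scale (95% interval -0.78 to 0.05, adjusted p = 0.242 by edgeR's quasi-likelihood test) became -0.20 without Control 2, the highest uterus, and -0.47 without Control 3, the lowest of the Control. *Klf13*, its closest relative among the members in finger-coding DNA, is located at chr7:63536099-63588663. Its CPM values were 79.8, 76.5 and 62.9 in the Control and 81.6, 85.4 and 82.7 in the *Gp130* ecKO uteri. The groups were separated by a narrow gap, and the *Gp130* ecKO uteri varied by only 2.40% (coefficient of variation, n = 3) against 12.3% in the Control. The log2 fold change was 0.19 (95% interval -0.17 to 0.55), with an adjusted p of 0.471 by edgeR's quasi-likelihood test, and it ran from 0.09 without Control 3 to 0.28 without Control 1. *Klf9* and *Klf13* thus stood on opposite sides of the Control, each by a difference that did not pass the test.

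*Klf10* and *Klf11*, also known as the TGF-beta inducible early genes, are located at chr15:38291703-38300959 and chr12:24701273-24712913. The CPM of *Klf10* was 31.7, 37.9 and 53.7 in the Control and 56.2, 25.0 and 26.4 in the *Gp130* ecKO uteri. That of *Klf11* was 46.6, 31.9 and 30.5 in the Control and 41.2, 22.3 and 16.6 in the *Gp130* ecKO uteri. In both genes *Gp130* ecKO 1 stood well above the other 2 uteri of its group, and the coefficient of variation in that group was 49.2% for *Klf10* and 48.1% for *Klf11*. The log2 fold change of *Klf10* was -0.19 (95% interval -1.04 to 0.65, adjusted p = 0.755 by edgeR's quasi-likelihood test) and moved to -0.67 without *Gp130* ecKO 1. The log2 fold change of *Klf11* was -0.44 (95% interval -1.27 to 0.38, adjusted p = 0.456) and went to -0.89 without that uterus, but to -0.17 without *Gp130* ecKO 3 and -0.20 without Control 1. The sign of the *Klf10* value was not stable, since it became 0.042 without Control 3, 0.014 without *Gp130* ecKO 2 and 0.012 without *Gp130* ecKO 3.

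*Klf15*, the factor of metabolic and hormone-responsive genes, is located at chr6:90438998-90452220. Its CPM values were 16.7, 19.4 and 13.1 in the Control and 20.4, 16.9 and 23.4 in the *Gp130* ecKO uteri. Only *Gp130* ecKO 2 lay within the Control range. The difference of 0.30 on the log2 scale (95% interval -0.26 to 0.85, adjusted p = 0.455 by edgeR's quasi-likelihood test) became 0.47 without Control 2, where the groups no longer overlapped, and 0.16 without Control 3.

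*Gp130* ecKO 1 was the highest uterus of its group in 7 of the 10 members (*Klf3*, *Klf4*, *Klf5*, *Klf6*, *Klf9*, *Klf10* and *Klf11*). The same share over all genes tested is not given here, so this count is not read as a trait of the members. The members did not vary as 1 block across the 6 uteri. As a description over n = 6 uteri that share their group labels, log2(CPM + 0.5) of *Klf4* and *Klf6* had a Pearson r of 0.86, *Klf3* and *Klf5* of 0.82, *Klf5* and *Klf13* of 0.82, and *Klf2* and *Klf3* of -0.83. The genes with the profile most like that of *Klf2* were *Gm13375* (r = 0.998), *Pfdn6* (0.995) and *Cd63* (0.991). *Klf3* was most like *G6pdx* (0.9996), *Tmem170* (0.998) and *Mtpn* (0.997), and *Klf9* was most like *Smco4* (0.995), *Rtl8c* (0.989) and *Gm17383* (0.980). These were picked as the highest of 14762 genes.

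**Figure D3:**
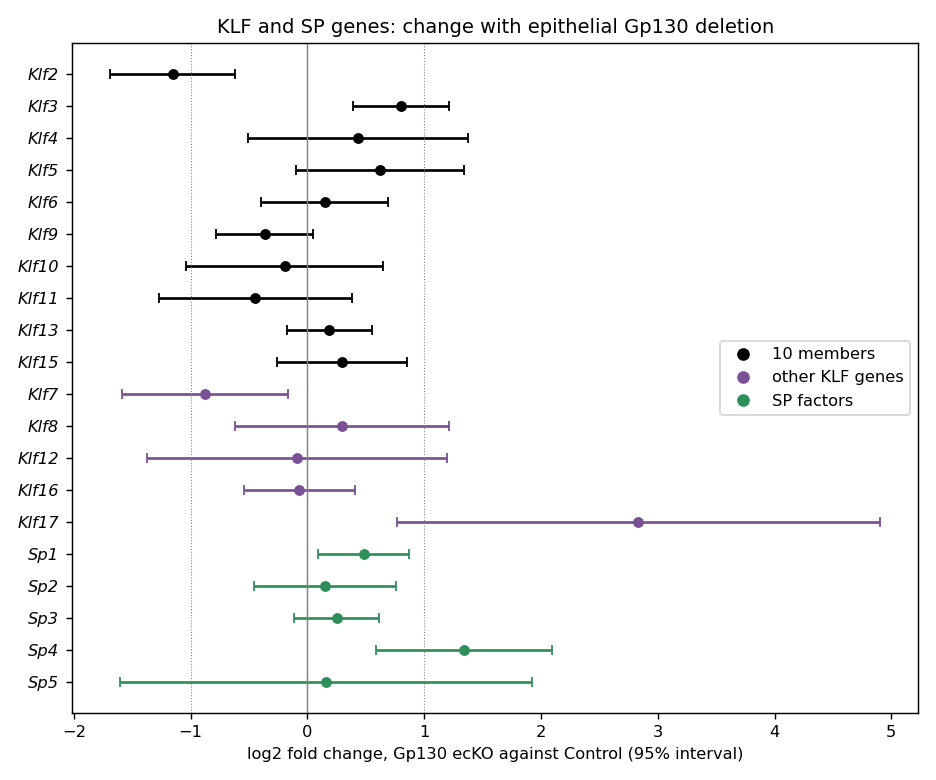
Log2 fold change of *Gp130* ecKO against Control uteri (points) with 95% intervals (bars) from edgeR's quasi-likelihood fit for the 10 members (black), the other KLF genes tested (purple) and the SP factors tested (green); dotted lines mark a 2-fold change. Among the members only the intervals of *Klf2* (-1.69 to -0.62) and *Klf3* (0.39 to 1.21) exclude 0, and the wide bar of *Klf17* rests on at most 22 counts in a uterus.

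Levels of different genes are compared on the deposited TPM, which corrects for transcript length. In the Control uteri *Klf5* (48.7 ± 12.9 TPM) and *Klf2* (48.1 ± 9.10) were the most abundant, followed by *Klf6* (34.3 ± 7.01), *Klf3* (25.3 ± 0.403), *Klf9* (24.6 ± 3.76), *Klf10* (18.9 ± 6.11), *Klf4* (16.01 ± 3.74), *Klf13* (15.4 ± 1.19), *Klf11* (11.95 ± 2.09) and *Klf15* (9.85 ± 0.986), each as mean ± SD of 3 uteri. Neighbours in this order overlapped in range, except *Klf6* and *Klf3*. In the *Gp130* ecKO uteri *Klf5* (81.3 ± 28.4) was followed by *Klf3* (48.6 ± 11.0), *Klf6* (40.6 ± 10.1) and only then *Klf2* (22.7 ± 2.12), and the step between *Klf6* and *Klf2* was the only one without overlap. The other members lay between 22.3 and 9.26 TPM, from *Klf4* to *Klf11*. Within single uteri *Klf2* was at rank 2, 2 and 1 in the Control and 6, 6 and 4 in the *Gp130* ecKO, and *Klf3* at rank 4, 5 and 5 in the Control and 2 in each *Gp130* ecKO uterus.

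The TPM of the 10 members summed to 279, 238 and 242 in the Control and 364, 304 and 211 in the *Gp130* ecKO uteri, with overlap. *Klf2* made up 18.9% ± 1.99 of this sum in the Control and 8.17% ± 2.56 in the *Gp130* ecKO (SD, n = 3 each). *Klf3* made up 10.05% ± 0.986 and 16.7% ± 0.701, and *Klf5* 19.1% ± 3.84 and 27.3% ± 4.35. The share of *Klf9* was 9.80% ± 2.11 and 7.06% ± 0.897, and that of *Klf11* was 4.70% ± 0.402 and 3.04% ± 0.787. These 5 shares did not overlap between the groups, although the CPM of *Klf5* and *Klf11* did. Each share gave 0.1 in an exact two-sided permutation test, the smallest p that groups of 3 allow. Any share without overlap gives this value, so the test adds nothing to the lack of overlap. A larger share of one member lowers the shares of the others, so they are not separate results.

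**Figure D4:**
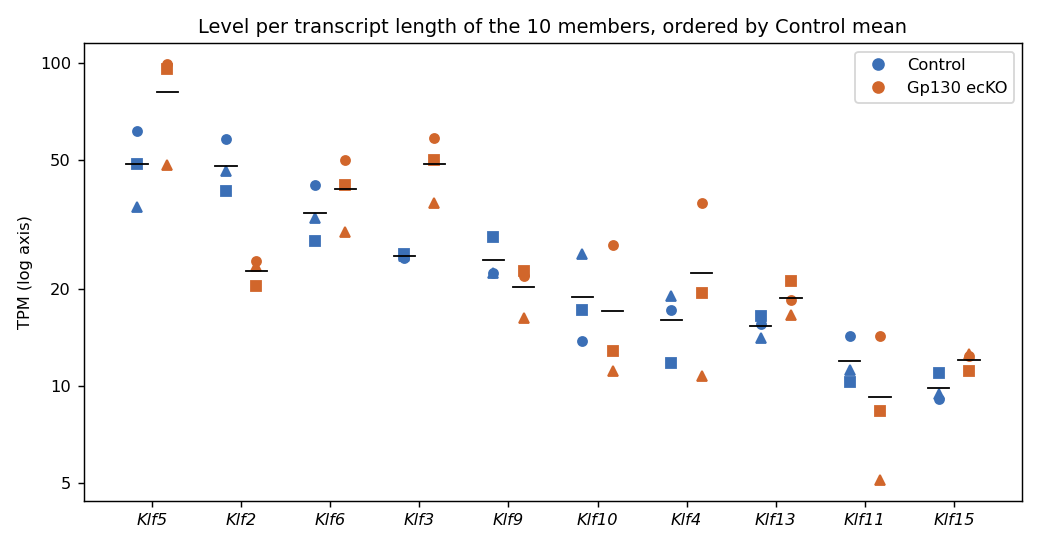
TPM (log axis) of the 10 members in each of 3 Control (blue) and 3 *Gp130* ecKO (orange) uteri, ordered by Control mean; circle, square and triangle are replicates 1, 2 and 3, and bars are group means. *Klf2* lay above *Klf3* in every Control uterus (means 48.1 and 25.3) and under it in every *Gp130* ecKO uterus (means 22.7 and 48.6).

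Of the 7 other KLF genes, 5 were tested and none was called by edgeR's quasi-likelihood test with all 6 uteri. At an FDR under 0.05 with any fold, 1 of them passed by edgeR's exact test and 0 by DESeq2. By the quasi-likelihood test without Control 2, 1 passed. *Klf7*, a relative of *Klf6*, had a CPM of 39.9, 19.98 and 29.4 in the Control and 18.7, 17.8 and 12.2 in the *Gp130* ecKO uteri (log2 fold change -0.87, adjusted p = 0.144 by edgeR's quasi-likelihood test). *Klf17* had counts of only 0, 7 and 0 in the Control and 22, 18 and 16 in the *Gp130* ecKO uteri, with an adjusted p of 0.119. *Klf8* (log2 fold change 0.30), *Klf12* (-0.09) and *Klf16* (-0.07) overlapped between the groups. The erythroid factor gene *Klf1* had 4 to 7 counts in each uterus, *Klf14* had 3 counts in *Gp130* ecKO 2 and 0 elsewhere, and neither was tested.

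The SP factors are the nearest relatives of the family and bind the same GC boxes, and 5 of 9 were tested. All 5 had a positive log2 fold change with a median of 0.25, which was 0.50 without Control 1 and 0.19 without *Gp130* ecKO 1. An unadjusted p under 0.05 was found for 2 of them, which is 40% beside 25.0% of all genes. *Sp4* had a CPM of 7.93, 11.5 and 7.13 in the Control and 29.0, 23.6 and 14.8 in the *Gp130* ecKO uteri (log2 fold change 1.34, adjusted p = 0.0897 by edgeR's quasi-likelihood test). *Sp1* had 107, 119 and 97.2 in the Control and 169.9, 149.8 and 131 in the *Gp130* ecKO uteri (log2 fold change 0.48, adjusted p = 0.144). *Sp2* (0.15), *Sp3* (0.25) and *Sp5* (0.16) overlapped between the groups. *Sp6* and *Sp7* were at a CPM of at most 0.333, *Sp8* and *Sp9* had no counts, and these 4 were not tested.

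Cofactors that Kruppel-like factors recruit, or that modify or degrade them, were mixed. Of 13, 8 had a positive and 5 a negative log2 fold change, with a median of 0.04. The sign of this median was not stable. Dropping Control 1 turned it to -0.029, dropping *Gp130* ecKO 1 turned it to -0.052, and dropping Control 2 left 0.0050. An unadjusted p under 0.05 was found for 3 genes, which is 23.1% beside 25.0% of all genes. *Kat2b*, which encodes the acetyltransferase PCAF, had a CPM of 109.8, 74.7 and 114 in the Control and 48.8, 61.3 and 51.9 in the *Gp130* ecKO uteri (log2 fold change -0.88, adjusted p = 0.0865 by edgeR's quasi-likelihood test). *Hdac1*, a histone deacetylase, had 153, 215 and 146 in the Control and 240.4, 259.8 and 268 in the *Gp130* ecKO uteri (0.58, adjusted p = 0.134). *Fbxw7*, the receptor of an E3 ligase that marks KLF5 and other factors for degradation, was at -0.54 (adjusted p = 0.138). *Ctbp1* and *Ctbp2*, the corepressors of KLF3, were at -0.17 and 0.09 and overlapped between the groups.

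Several members are induced early after growth factor or serum stimulation, and 15 other immediate early genes were set beside them. Of these, 13 had a negative and 2 a positive log2 fold change, with a median of -1.23, and 11 had an unadjusted p under 0.05 (10 lower, 1 higher), which is 73.3% beside 25.0% of all genes. *Egr1*, a zinc finger transcription factor, had a CPM of 132, 60.5 and 125 in the Control and 18.7, 26.8 and 16.5 in the *Gp130* ecKO uteri (log2 fold change -2.36, adjusted p = 0.0548 by edgeR's quasi-likelihood test). *Fos* had 88.4, 28.8 and 40.1 in the Control and 8.05, 9.81 and 12.4 in the *Gp130* ecKO uteri (-2.38, adjusted p = 0.0638), and *Junb* was at -1.23 (adjusted p = 0.0729). *Ier3* was the higher one, at 1.34 (adjusted p = 0.0897). Of the members, *Klf2* stood near the median of this list, and *Klf4*, *Klf6* and *Klf10* lay between -0.19 and 0.43.

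Beside *Klf10* and *Klf11*, 9 early genes of TGF-beta and BMP signalling were measured, 4 with a positive and 5 with a negative log2 fold change. Their median was -0.33, and 3 had an unadjusted p under 0.05 (33.3% beside 25.0% of all genes). The median was 0.012 without Control 1 and 0.00081 without *Gp130* ecKO 1. *Id2*, an inhibitor of basic helix-loop-helix factors, was at 1.297 (adjusted p = 0.0764 by edgeR's quasi-likelihood test), whereas its relative *Id3* was at -1.38 (adjusted p = 0.137). *Ccn2*, a matricellular growth factor, was at -2.14 (adjusted p = 0.126) with overlap between the groups, and *Smad7*, an inhibitor of the pathway, was at 0.60 (adjusted p = 0.2305).

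*Klf9*, *Klf13* and *Klf15* respond to glucocorticoids in many tissues, and 9 glucocorticoid induced genes were set beside them. Of these, 8 had a positive and 1 a negative log2 fold change, with a median of 0.37, which was 0.67 without Control 2. Only 2 had an unadjusted p under 0.05 with all 6 uteri (1 in each direction), which is 22.2% beside 25.0% of all genes. *Sgk1*, a kinase of sodium channel control, had a CPM of 69.8, 68.5 and 25.1 in the Control and 161, 478 and 518 in the *Gp130* ecKO uteri (log2 fold change 2.82, adjusted p = 0.0677 by edgeR's quasi-likelihood test). *Cebpd*, a leucine zipper factor, was the lower one, with 357, 98.0 and 171 in the Control and 38.5, 24.0 and 29.9 in the *Gp130* ecKO uteri (-2.76, adjusted p = 0.0616). *Tsc22d3* was at 0.49 (adjusted p = 0.203) and *Zbtb16* at 0.91 (adjusted p = 0.252).

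Of 4 metabolic genes known as targets of KLF15, namely *Slc2a4*, *Bcat2*, *Prodh* and *Gpt*, all overlapped between the groups, with log2 fold changes from -0.35 to 0.43. The 10 genes of DNA replication and cell cycle control had negative log2 fold changes with a median of -0.86. Of these, 7 had an unadjusted p under 0.05 (70% beside 25.0% of all genes), *Mcm2*, *Mcm6* and *Mcm7* being the exceptions, and 5 had no overlap between the groups (beside 31.3% of all genes). *Mcm4* was at -1.06 (adjusted p = 0.114 by edgeR's quasi-likelihood test), *Mcm3* at -0.98 (adjusted p = 0.105), the cell cycle inhibitor gene *Cdkn1a* at -1.44 (adjusted p = 0.118) and *Mki67* at -1.72 (adjusted p = 0.167). *Mcm2* was at -0.17 with overlap. Among the steroid receptors, *Esr1*, the estrogen receptor, had a CPM of 277, 332 and 205 in the Control and 773, 693 and 709 in the *Gp130* ecKO uteri (log2 fold change 1.42, adjusted p = 0.0548). *Pgr*, the progesterone receptor with which KLF9 acts, was at 0.74 (adjusted p = 0.308), and *Nr3c1*, the glucocorticoid receptor, at -0.28 (adjusted p = 0.370).

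None of the 80 tested genes in these 10 lists was called by the quasi-likelihood test. Of these 80, edgeR's exact test called 20 (25.0%, beside 7.54% of all genes), its likelihood ratio test 20 (beside 7.93%), DESeq2 21 (26.2%, beside 9.29%) and the quasi-likelihood test without Control 2 called 12 (15.0%, beside 5.23%). The lists were chosen with earlier results of these data known, so shares above those of all genes are not a result about the lists. The log2 fold changes of the members lay on both sides of 0, whereas 13 of 15 immediate early genes and all 10 genes of DNA replication and cell cycle control were negative, and this contrast was not tested.

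**Figure D5:**
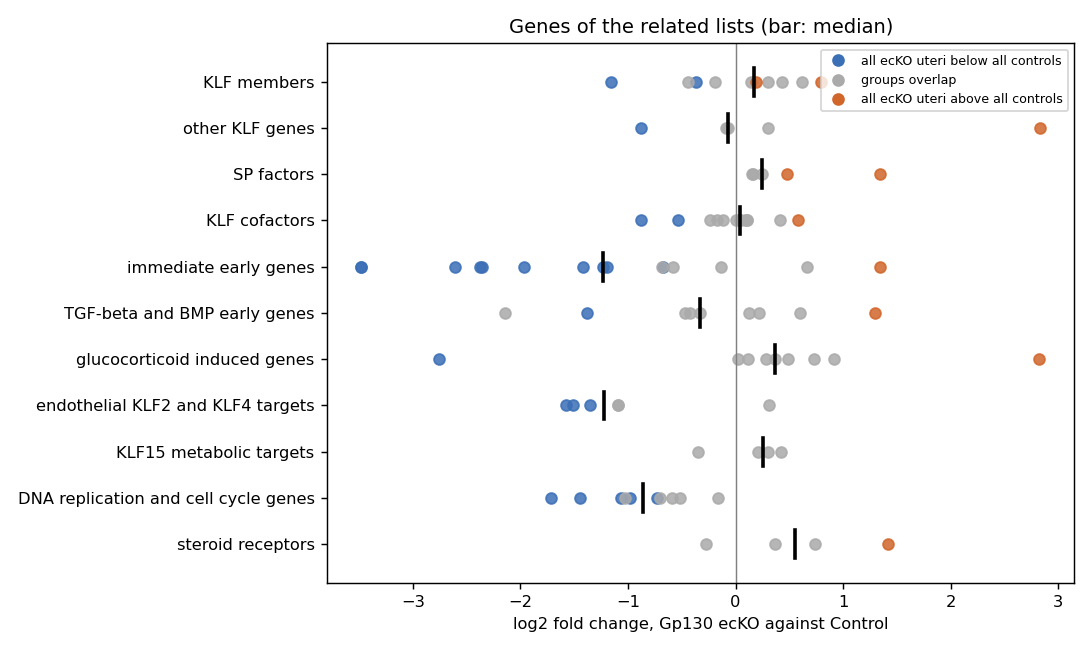
Log2 fold change of *Gp130* ecKO against Control uteri for each tested gene of the members and of 10 related lists; blue and orange points are genes whose *Gp130* ecKO uteri all lay under or above the Control, grey points overlapped, and black bars are medians. The median of the members was 0.17, that of the immediate early genes -1.23 and that of the genes of DNA replication and cell cycle control -0.86. Without *Gp130* ecKO 1 the median of the members was -0.073, and without Control 1 it was 0.31.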

How the data were processed

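Per the labels and the methods of the study, strand-specific libraries of whole uterus RNA were read as single reads of 75 bp, and the submitters' processing notes name fastp 0.23.2, STAR 2.7.10a, RSEM 1.3.3, R 4.2.1 and edgeR 3.38.4 with the build GRCm39. The annotation version and whether counting used strand are not given in the sources used here. The authors deposited, for each uterus, the RSEM expected count of 56748 genes, which is not normalized and divides shared reads by a model, together with TPM and FPKM. The deposited TPM, which the authors took from RSEM and which corrects for transcript length, was used for levels between genes, and the deposited FPKM only as an alternative for the shares of the members.

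Rounded expected counts were tested with edgeR 4.0.16 under R 4.3.3 (filterByExpr, TMM, quasi-likelihood F test without the legacy setting, Benjamini-Hochberg adjustment over 16605 genes), with DESeq2 1.42.0 as an alternative. Genes were called at an FDR under 0.05 and a change above 2-fold. Standard errors were derived from the F statistic, and intervals are at 95%. Symbols and coordinates came from GENCODE M39, which held 56017 of the identifiers. The members and gene lists were chosen with earlier results of these data known. The genes named are *Il6st* and *Ltf* as a check of the model, the members, cell type markers, the other KLF and SP genes, up to 4 genes with the smallest p of each further list, and single genes of the lists chosen after their values were seen (*Ctbp1*, *Ctbp2*, *Edn1*, *Sele*, *Mcm2*, *Mcm6*, *Mcm7* and *Mki67*). One gene of the lists is not reported here. Profile likeness was computed on log2(CPM + 0.5) over genes whose mean CPM reached 1. Total counts ran from 13960748 to 25906443, lowest in Control 3. Alternatives were other tests, scalings and filters, unrounded counts, FPKM for TPM, a replicate block and the omission of single uteri. The procedure was tested on simulated counts with known changes.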

Additional observations from a re-analysis of the deposited data

How the results depend on the processing

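All 10 members kept their direction over the 17 alternatives except *Klf4*, *Klf6* and *Klf10*, and the causes were not tested. Leaving out 1 uterus at a time, the log2 fold change of *Klf4* ran from -0.13 (without *Gp130* ecKO 1) to 0.75, and that of *Klf6* from -0.021 (without *Gp130* ecKO 1) to 0.39. That of *Klf10* ran from -0.67 to 0.042 (without Control 3), and it was 0.014 without *Gp130* ecKO 2 and 0.012 without *Gp130* ecKO 3. *Klf2* passed both thresholds, so that 1 member instead of 0 was called, with edgeR's exact test (log2 fold change -1.15), its likelihood ratio test (-1.15), DESeq2 (-1.14) and without Control 2 (-1.24), and over the 6 fits that left out a uterus the number of members called ran from 0 to 1 and the log2 fold change of *Klf2* from -1.24 to -0.92. The number of genes called, 26, was 7 with the legacy form of the quasi-likelihood test, 1252 with the exact test, 1317 with the likelihood ratio test, 1542 with DESeq2 and 105 with no filter. It ran from 1, without *Gp130* ecKO 3, to 897, without Control 2, when a uterus was left out. Genes called in the 10 related lists went from 0 to 20 with the exact test, 20 with the likelihood ratio test, 21 with DESeq2 and 3 with no filter, and over the fits that left out a uterus from 0 to 12, without Control 2. The count of members without overlap ran from 4 to 6 when a uterus was left out, an alternative chosen after the data were seen, beside 36.5% to 45.9% of all genes tested. It was 6 without Control 1, beside 39.2%, and 6 without *Gp130* ecKO 1, beside 36.5%. Scaling moved the median of all genes from -0.05 to -0.11 with upper quartile and to -0.10 with library totals, and no member changed sign with any scaling.

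The replicate numbers are shared by the groups, and the labels do not say whether they pair the uteri. The deviations of uteri with the same number correlated by 0.104, 0.0691 and -0.196, and not every uterus correlated best with its own number. With so few uteri in each group, these values cannot decide whether the numbers are pairs. With the replicate block 6 genes were called and no member, and *Klf2* was at -1.14 (adjusted p = 0.0866 by edgeR's quasi-likelihood test). *Klf5* (0.63, adjusted p = 0.134 by the same test) and *Klf11* (-0.52, adjusted p = 0.253) had their lowest adjusted p of the 17 alternatives with this block.

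*Klf15*, the member with the fewest counts, had a standard error of 0.24 on the log2 scale, smaller than those of *Klf4* (0.40), *Klf10* (0.36), *Klf11* (0.35) and *Klf5* (0.31), and its interval still included changes of up to 0.85. Reads from the stretches that *Klf3* and *Klf9* share with their antisense genes could be told apart only if counting used strand.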
